A study of Rattus norvegicus with 4 samples.

Results

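The leukocyte integrins and the cell surface ligands they bind were followed in retroperitoneal white fat of obese and lean rats. The set was named gene by gene: Itgb2, Itgal, Itgam, Itgax, Itgad, Itga4 and Itgb7 for the integrin subunits and Icam1, Icam2 and Vcam1 for the ligands. A gene was taken where an array row carried its symbol and no other, which held for 9 of the 10 genes (6 subunits and 3 ligands) among 14506 genes with a row of their own. Each of the 9 had a single row, and Itgax was not analysed here. The study compared 2 obese and 2 lean male rats of the WNIN/Ob strain, all 4 months old, untreated and on stock diet. The lean rats are of the same strain as the obese ones, the groups are given by phenotype, and each rat gave 1 sample of whole frozen fat on 1 Affymetrix Rat Gene ST array. Values are log2 intensities, and differences are obese minus lean on that scale.

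Integrins are adhesion receptors made of an alpha and a beta chain, and neither chain reaches the cell surface in quantity without its partner. Itgb2 encodes the beta chain CD18, which is found on leukocytes and pairs with 4 alpha chains: Itgal (LFA-1), Itgam (Mac-1, also complement receptor 3), Itgax and Itgad. Itga4 encodes an alpha chain that pairs with Itgb1 to form VLA-4 or with Itgb7 to form the receptor that guides lymphocytes to the gut. On the other side of the contact, Icam1 and Icam2 are bound by the CD18 integrins and Vcam1 by the Itga4 integrins. In fat these contacts are known from the arrest of blood monocytes and lymphocytes on the vessel wall and from their attachment to stromal cells and adipocytes.

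The adipocyte marker list was present on every array, with all 10 genes above the level defined below as background. Skeletal muscle genes stood apart in lean rat 1. Their summed intensity was 810 and 559 in the obese rats, against 42769 in lean rat 1 and 739 in lean rat 2, so the integrin subunits, their partner Itgb1 and the ratios between genes are also given without lean rat 1. Lean rat 2 stood apart in another way. Its log2 values were compressed, with an interquartile range over all rows of 2.24, against 2.77 and 2.76 in the obese rats and 2.63 in lean rat 1, and with a receptor-gene median of 3.86, against 3.16 in each obese rat and 3.38 in lean rat 1. Its part in differences of genes near background, such as Itgb7, was not tested beyond leaving it out. The table holds no detection call, and background was therefore read from 1240 olfactory and vomeronasal receptor genes, whose 95th percentile was 4.69 and 4.71 in the obese rats and 4.94 and 5.36 in the lean rats. Of the 9 genes, 8 lay above it on all 4 arrays, and the exception was Itgad.

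Among the 9 genes, limma's test at an adjusted p under 0.05 called 3 higher and 0 lower in obese fat and left 6 without a call. Over all genes tested 0.841% were called, 0.772% higher and 0.0689% lower. The 3 genes were Itgb2, its partner Itgam, and Itga4. The obese pair lay wholly above the lean pair for 5 genes and wholly below it for 1, where over all genes these shares were 26.4% and 21.3%. All 3 ligands and the chains Itgal, Itgad and Itgb7 were among the genes that did not pass. In whole tissue, more cells of a type and more RNA per cell cannot be told apart.

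**Figure D1:**
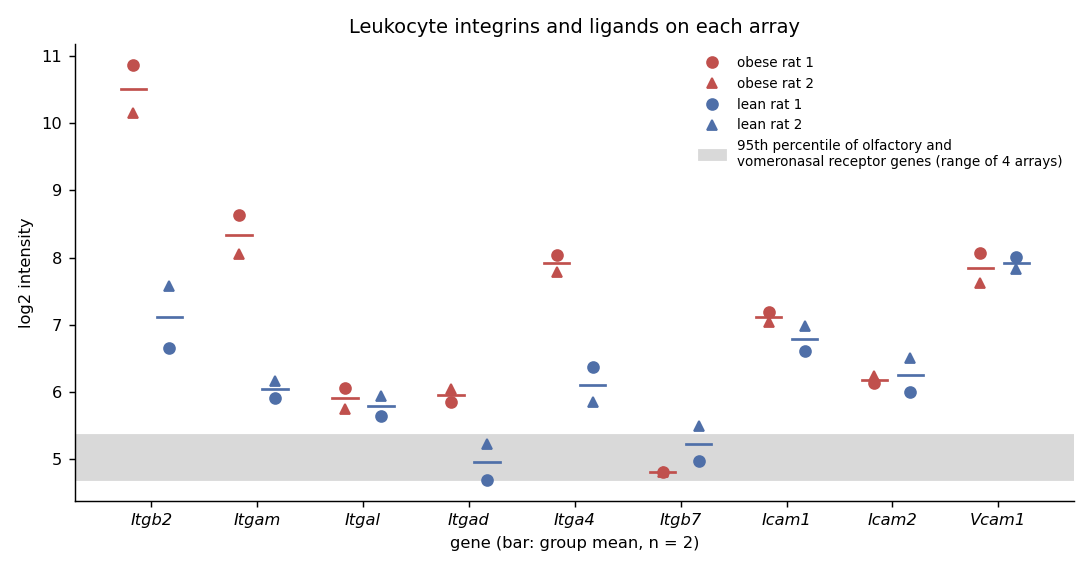
Log2 intensity (vertical axis) of the 9 genes on each of the 4 arrays, obese rats in red left of lean rats in blue, with a bar at each group mean (n = 2). The grey band spans the 95th percentile of the receptor genes on the 4 arrays. Obese and lean rats are far apart for Itgb2, Itgam and Itga4, while Itgal, Icam2 and Vcam1 overlap.

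The common beta chain of the CD18 family showed the largest difference of the set. Itgb2 was at 10.87 and 10.16 in the obese rats, against 6.66 and 7.58 in the lean rats. Both obese rats were well above both lean rats, and the gap between the groups was wider than the gap between rats of either group. Itgb2 rose by 3.39 ± 0.41 (SE, n = 2 per group), a 10.5-fold higher intensity with a 95% interval of 5.42 to 20.4, and limma's adjusted p was 0.018. Among all genes tested this was the 11th highest difference. Without lean rat 1, the array with muscle RNA, the difference was 2.93 with an adjusted p of 0.029.

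Itgam, the alpha chain of Mac-1 by which macrophages, monocytes and neutrophils bind Icam1, fibrinogen and the complement fragment iC3b, moved the same way. Its values were 8.63 and 8.05 in the obese rats and 5.92 and 6.17 in the lean rats. The lean rats differed from each other by only 0.25, and obese rat 1 was the highest. Itgam rose by 2.30 ± 0.31 (adjusted p = 0.025 by limma), a 4.92-fold higher intensity, and was at 2.17 without lean rat 1 (adjusted p = 0.031).

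Itgal, the alpha chain of LFA-1 on lymphocytes and many other leukocytes, did not share this difference. It was at 6.06 and 5.75 in the obese rats, against 5.64 and 5.94 in the lean rats. The groups overlapped. The difference was 0.12 ± 0.26 with a 95% interval of -0.48 to 0.71 (adjusted p = 0.866 by limma), and its sign turned without obese rat 1 or without lean rat 1 (-0.037 each time). The upper end of that interval lies below the lower end of the interval of Itgb2 (2.44) and of Itgam (1.58).

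Itgad, the alpha chain CD11d found on some tissue macrophages, lay between these. It was at 5.85 and 6.05 in the obese rats and at 4.69 and 5.23 in the lean rats. Both obese rats were above both lean rats, but the lean values were under the receptor-gene background of their own arrays (4.94 and 5.36), so the size of the difference is uncertain. The difference was 0.99 ± 0.27 (adjusted p = 0.157 by limma), 1.26 without lean rat 2, where it passed (adjusted p = 0.037), and 0.72 without lean rat 1. Itgam, Itgax and Itgad are consecutive protein-coding genes on rat chromosome 1 in RefSeq's annotation of assembly GRCr8, where Itgax is also listed as an older name of Itgad. The row analysed here carries the gene ID of Itgad. These neighbours are related in sequence, and cross-hybridisation between them was not tested.

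The alpha chain of the other leukocyte family rose while its leukocyte-specific beta partner did not. Itga4 was at 8.04 and 7.79 in the obese rats, against 6.37 and 5.85 in the lean rats. Both obese rats lay more than 1 log2 unit above both lean rats. Itga4 rose by 1.81 ± 0.30 (3.50-fold, adjusted p = 0.042 by limma), and was at 2.06 without lean rat 1 (adjusted p = 0.028). This call is close to the threshold and was lost with quantile normalization (1.74, adjusted p = 0.070), with arrays centred on their medians (1.90, adjusted p = 0.060), with 16 added to each intensity (1.59, adjusted p = 0.054) and over all 29214 rows of the table (adjusted p = 0.072). Those 4 alternatives called 0.517%, 0.793%, 0.6% and 0.633% of all features tested.

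Itgb7 was at 4.80 and 4.81 in the obese rats and at 4.97 and 5.49 in the lean rats. The obese rats were a little lower, and all 4 values lay only just above the receptor-gene background. The difference was -0.42 ± 0.25 with a 95% interval of -1.01 to 0.17 (adjusted p = 0.468 by limma). Leaving out lean rat 1 gave -0.68 (adjusted p = 0.077), and leaving out lean rat 2 gave -0.16 (adjusted p = 0.736). Itgb1, the other partner of Itga4 and the shared beta chain of many cell types, was at 10.60 and 10.78 in the obese rats, against 10.41 and 10.04 in the lean rats. Its difference was 0.46 ± 0.32 (95% interval -0.27 to 1.19, adjusted p = 0.520). With lean rat 1 left out it was 0.65 (adjusted p = 0.210).

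**Figure D2:**
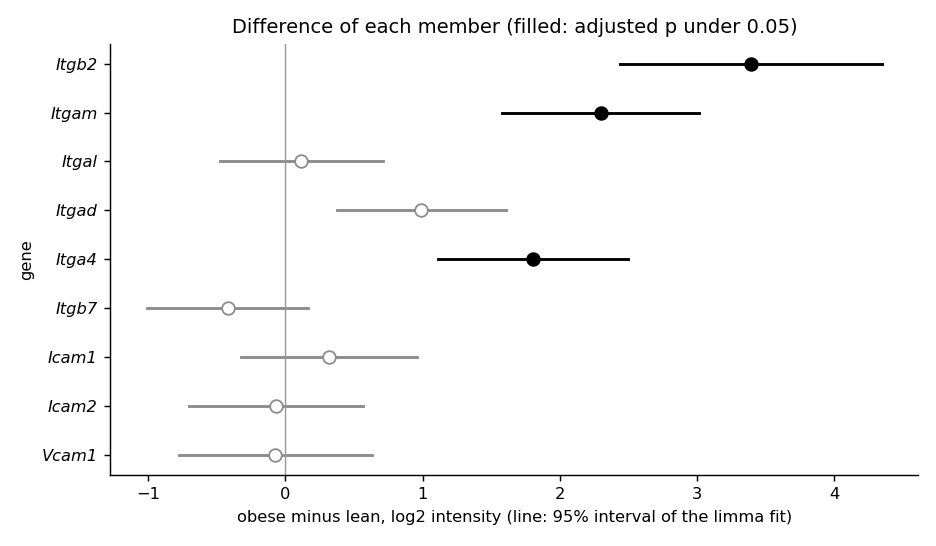
Obese minus lean difference in log2 intensity (horizontal axis) of each of the 9 genes, with the 95% interval of the limma fit as a line. Filled points passed at an adjusted p under 0.05. The intervals of Itgb2, Itgam and Itga4 lie above 1, and those of Itgal, Itgb7, Icam1, Icam2 and Vcam1 include 0.

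For the ligands, the promoters of the inducible pair Icam1 and Vcam1 and of the called integrin gene Itgam are shown, since all 3 genes are known from other work for factor sites near their starts. RefSeq promoter windows of GRCr8, 250 bases before to 50 after a start, were found for 6 of the 10 genes. They were searched on both strands for GAGGAA (letters of sites bound by ETS factors such as PU.1), for GGAAATTCC and GGGATTTCC (forms of the NF-kappa-B site) and for TATAAA. Below is the part of each window that precedes the gene's outermost annotated start, 5′ to 3′ on the gene's strand, with matches in capitals. Itgam lies at chr1:192089342-192089495 (plus strand), Icam1 at chr8:27829595-27829687 (plus strand) and Vcam1 at chr2:206742784-206743033 (minus strand).
Itgam: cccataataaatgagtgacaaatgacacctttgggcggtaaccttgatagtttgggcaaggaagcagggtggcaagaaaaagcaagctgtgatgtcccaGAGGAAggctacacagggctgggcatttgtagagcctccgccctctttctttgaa
Icam1: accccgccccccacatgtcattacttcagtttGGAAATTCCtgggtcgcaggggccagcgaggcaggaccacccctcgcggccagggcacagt
Vcam1: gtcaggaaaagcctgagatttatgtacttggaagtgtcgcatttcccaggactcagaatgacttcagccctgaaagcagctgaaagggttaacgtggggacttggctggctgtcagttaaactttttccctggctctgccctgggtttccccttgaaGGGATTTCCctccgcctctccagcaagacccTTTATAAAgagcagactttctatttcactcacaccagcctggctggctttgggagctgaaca
Icam1 held GGAAATTCC and Vcam1 held GGGATTTCC, each found in 0.332% and 0.326% of the 33469 windows of the table, and neither stood in the other 5 windows. Positions are counted from the start that each window was cut around. For Itgam and Icam1 that start lies downstream of the outermost annotated start, where the stretch printed ends. In Vcam1 GGGATTTCC begins 93 bases before the start, and TATAAA follows on the same strand at 60 bases, where it overlaps a match on the opposite strand. Icam1 also has TATAAA, 53 bases before the start and outside the stretch printed. Of all windows 14.2% held that motif. In the set 3 of the 6 windows did, those of Icam1, Vcam1 and the integrin gene Itgb7 (opposite strand, 20 bases before the start). The Itgam window did not. Itgam had GAGGAA on its own strand 151 bases before the start of its window's count, inside the stretch printed. It also had these letters on the opposite strand at 39 bases, outside that stretch. These letters stood in 27.6% of all windows and in none of the other 5. A match describes letters, not a bound site.

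Neither ligand with these letters changed detectably. Icam1, the inducible ligand of LFA-1 and Mac-1, was at 7.18 and 7.04 in the obese rats and at 6.61 and 6.98 in the lean rats. Both obese rats were above both lean rats, yet obese rat 2 exceeded lean rat 2 by less than the gap between the lean rats. The difference was 0.32 ± 0.28 with a 95% interval of -0.33 to 0.96 (adjusted p = 0.627 by limma). Vcam1, the ligand of VLA-4 on activated endothelium and on stromal cells, was at 8.07 and 7.62 in the obese rats, against 8.005 and 7.83 in the lean rats. The lean values lay inside the range of the obese ones. Its difference was -0.07 ± 0.30 (95% interval -0.78 to 0.63, adjusted p = 0.931) and was above 0 with arrays centred on their medians (0.025).

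Icam2, a ligand of LFA-1 that endothelium carries without stimulation, was at 6.13 and 6.23 in the obese rats and at 5.997 and 6.51 in the lean rats. The obese values fell between the lean ones. The difference was -0.07 ± 0.28 (95% interval -0.70 to 0.57, adjusted p = 0.929 by limma), and it too was above 0 with arrays centred on their medians (0.030). Markers of endothelium, which carries Icam2, gave no called gene among 15 measured in the fit over all 4 rats, with a median difference of -0.24. Of the 15, 4 had an unadjusted p under 0.05 by limma, against 2214 of all 14506 genes. Their summed intensity was 2431 and 2455 in the obese rats, against 2960 and 2953 in the lean rats. Emcn of this list was at -1.19 over all 4 rats, where it had no call. Its difference was -1.52 without lean rat 1.

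Whether partners moved by unequal amounts was asked from ratios within each array, over 12 pairs of genes that were picked after the values above had been seen. The log2 ratio of Itgal to Itgb2 differed by -3.28 (obese minus lean), that of Itgad to Itgb2 had a difference of -2.40 and that of Itgam to Itgb2 one of -1.09. The size for Itgad is uncertain, since its lean values were under background. The ratio of Itga4 to Itgb7 differed by 2.23 and that of Itga4 to Itgb1 by 1.34. The size for Itgb7 is uncertain too, since its values lay only just above background on every array. Between receptors and ligands, the differences were 3.07 for Itgb2 over Icam1, 1.98 for Itgam over Icam1 and 1.88 for Itga4 over Vcam1. In these 8 pairs the obese and lean ratios did not overlap. As the pairs were picked with the values known, that count is description only. The share of all gene pairs that separate was not taken. With 2 rats against 2 the exact two-sided permutation test gave p = 0.333, the smallest it can give (0.364 adjusted over the 12 pairs), so the pairs could not pass whatever their size.

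The other 4 pairs set the integrins against Ptprc (CD45), the membrane phosphatase shared by all nucleated blood cells. Ptprc was at 9.66 and 9.53 in the obese rats and at 7.62 and 7.78 in the lean rats, and rose by 1.90 ± 0.29 (adjusted p = 0.034 by limma). The ratio of Itgb2 to Ptprc was higher in obese fat by 1.49, and that of Itgal to Ptprc had a difference of -1.78. The ratio of Itgam to Ptprc differed by 0.40, and the ratio of Itga4 to Ptprc by -0.09, with overlapping groups in the last pair. The exact permutation p was 0.333 for the first 3 and 1.0 for the last. Without lean rat 1 the difference of the ratio of Itga4 to Ptprc turned to 0.24, and the other 11 kept their sign, with -0.76 for Itgam over Itgb2 and 1.11 for Itgb2 over Ptprc.

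Marker genes of cells that carry these integrins moved unevenly. Of 4 genes of leukocytes of any kind, Ptprc and Laptm5, a lysosomal protein of blood cells, rose (Laptm5 by 2.71, adjusted p = 0.028 by limma). Neither passed with quantile normalization (adjusted p = 0.067 and 0.063 by limma). Cd53 was at 2.42 without a call (adjusted p = 0.081 by limma), and Cd52 was at -0.15 with overlapping groups. Of 15 macrophage genes, Lyz2, the lysozyme of myeloid cells (3.92), and Mpeg1, the pore-forming perforin-2 (2.71), rose. The other 13 did not pass, and the list median was 0.69. At an unadjusted p under 0.05 by limma were 8 of the 15, and 3 of the 4 genes of leukocytes of any kind. Over all genes tested 2214 of 14506 were. The summed intensity of the macrophage list was 12253 and 7845 in the obese rats, against 4237 and 3846 in the lean rats. Bright genes weigh most in such a sum, and Lyz2 was at 11.88 and 10.65 in the obese rats, against 7.65 and 7.04 in the lean rats. The obese pair lay wholly above the lean pair for 9 of the 15 genes, as it did for 26.4% of all genes. Cd163 (-0.05) and Marco (-0.11) were not higher. The macrophage list had 6 genes called higher without obese rat 2, where 2.45% of all genes were called, and 3 with any other rat left out.

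Markers of the other leukocytes gave no called gene in the fit or in any fit that left out 1 rat. There were 18 genes of T, B and NK cells (median -0.06), 11 of neutrophils (-0.0094), 6 of dendritic cells (-0.11) and 8 of mast cells and eosinophils (-0.18). None of these genes had an unadjusted p under 0.05 by limma, which 2214 of all 14506 genes had. Cd79b, of the B-cell receptor, had the smallest p of the first list (-0.58, adjusted p = 0.334), and 8 of its 18 genes were at or below background on all 4 arrays. The summed intensity of the T, B and NK list was 463 and 423 in the obese rats and 441 and 549 in the lean rats. That of the neutrophil list was 536 and 804 in the obese rats and 573 and 670 in the lean rats. Most of each sum came from Mpo, the myeloperoxidase gene, named after its value was seen, at 8.28 and 9.10 in the obese rats and 8.43 and 8.66 in the lean rats. At or below background on all 4 arrays were 4 of the 11 neutrophil genes, 1 of the 6 dendritic cell genes and 5 of the 8 mast cell and eosinophil genes, so a change in these could be missed. The part that cell numbers have in the integrin differences was not tested.

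**Figure D3:**
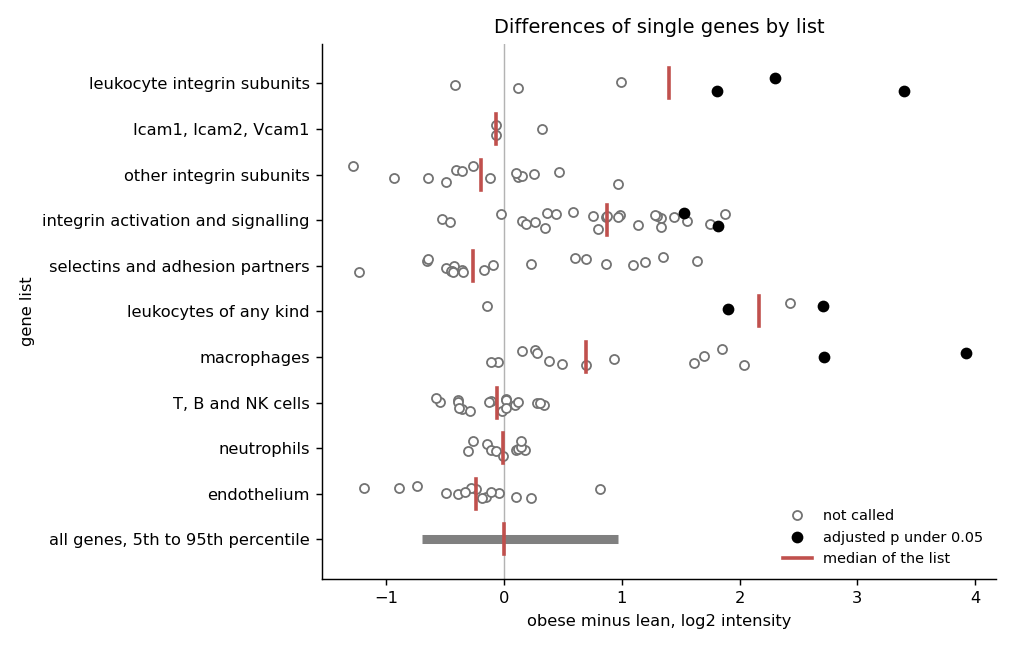
Obese minus lean difference in log2 intensity (horizontal axis) of single genes, by list (vertical axis), with filled points for an adjusted p under 0.05 and a red bar at each list's median. The bottom line spans the 5th to 95th percentile of all 14506 genes around their median. The integrin subunits, the activation list and the leukocyte and macrophage lists extend to the right, while the ligands and the lymphocyte, neutrophil and endothelial lists have medians between -0.24 and -0.0094.

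Genes that switch integrins on or signal below them were measured beside the receptors. Of 27 such genes 2 rose and 25 had no call, with a median of 0.88 against 0.0004 over all genes. For 22 of them the obese pair lay wholly above the lean pair, as it did for 26.4% of all genes. At an unadjusted p under 0.05 by limma were 18 of the 27, against 2214 of all 14506 genes. Cytip, which binds cytohesin-1 and thereby dampens LFA-1 adhesion in lymphocytes and dendritic cells, rose by 1.82 ± 0.24 (adjusted p = 0.025 by limma). It was at 6.86 and 6.67 in the obese rats and at 4.98 and 4.91 in the lean rats, below or near background in the lean ones.

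Dock2, the exchange factor for Rac in leukocyte migration, was at 7.42 and 7.13 in the obese rats, against 5.69 and 5.81 in the lean rats. It rose by 1.53 ± 0.26 (adjusted p = 0.048), a call lost under 5 alternatives, quantile normalization (adjusted p = 0.067) and leaving out obese rat 1 (1.39, adjusted p = 0.159) among them. Without a rat the number of genes called in this list ran from 1 (without obese rat 1) to 8 (without obese rat 2), and was 6 without lean rat 1, while the share of all genes called was 1.85%, 2.45% and 7.45% in these 3 fits. Fermt3, or kindlin-3, without which human leukocyte integrins fail to activate, was at 1.74 ± 0.36 and did not pass (adjusted p = 0.084). It is named for its role, after its value was seen. It passed without obese rat 2 (2.24, adjusted p = 0.00077) but with no other rat left out, and was at 1.25 without obese rat 1 (adjusted p = 0.299).

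Among 14 other integrin subunits, most of them chains of matrix-binding, epithelial or platelet integrins, no gene passed and the median was -0.19. At an unadjusted p under 0.05 by limma there were 3 of the 14, against 2214 of all 14506 genes tested. The 3 included Itgb4, the beta chain of hemidesmosomes (-0.94, adjusted p = 0.198), and Itgb5, a partner of the vitronectin receptor alpha chain (0.97, adjusted p = 0.230). Itgae, the alpha chain CD103 of lymphocytes that pairs with Itgb7, is also in this list, and is named after its value was seen (-0.12, adjusted p = 0.840 by limma). It was among the 3 of the 14 genes at or below background on all 4 arrays, so a change in it could be missed. Without lean rat 2, Itgb6 of this list was at -2.39. It was under background in both obese rats (4.29 and 4.41) and in lean rat 2 (4.53), so that size rests on lean rat 1. Among 20 selectins, junction proteins and other adhesion partners no gene passed either, and the median was -0.26. Thy1, a surface protein of stromal cells that Mac-1 can bind (1.35, adjusted p = 0.074), and Spn, the leukocyte sialophorin CD43 (1.63, adjusted p = 0.092), had the smallest p. In this list 7 of the 20 genes had an unadjusted p under 0.05 by limma, against 2214 of all 14506. At or below background on all 4 arrays were 4 of the 20. Without lean rat 1, where 7.45% of all genes were called, 4 genes of the list passed, 2 in each direction.

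A further 3 genes of that list, named for their roles after their values were seen, did not pass. Madcam1, the gut ligand of the Itga4 and Itgb7 pair, was at 5.51 and 5.76 in the obese rats and at 5.68 and 5.94 in the lean rats, with a difference of -0.17 (adjusted p = 0.784). Selp, the P-selectin on which leukocytes roll before integrins take hold, was at 5.73 and 5.54 in the obese rats, against 6.47 and 7.28 in the lean rats. Its difference was -1.24 ± 0.32 (adjusted p = 0.143), and it passed without lean rat 1 (-1.64, adjusted p = 0.029) but with no other rat left out, at -0.83 without lean rat 2 (adjusted p = 0.132). Selplg, the P-selectin ligand on leukocytes, differed by 1.19 ± 0.32 (adjusted p = 0.161) and passed without lean rat 2 (1.56, adjusted p = 0.034) but with no other rat left out, at 0.82 without lean rat 1 (adjusted p = 0.095).

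Genes whose profile over the 4 arrays came closest to a called integrin were found by the Euclidean distance between centred log2 values. For Itgb2 they were Lilrb4 (distance 0.49), Ccl9 (0.52), Gpnmb (0.52), Tm4sf19 (0.56) and Slamf9 (0.61). For Itgam they were C1qtnf1 (0.12), Fcgr1a (0.17), Usp18 (0.22), Bin2 (0.26) and Fcgr3a (0.26), and for Itga4 Samsn1 (0.077), Rgs18 (0.10), Tbc1d9 (0.12), Ctsd (0.15) and Btk (0.16). The distances rest on 4 arrays and mainly carry the size of the difference between the groups. Slamf9, Usp18, Bin2, Fcgr3a and Btk were under the receptor-gene background in both lean rats, so the size of their differences is uncertain. Among the set itself Itgam and Itga4 were at 0.77 from each other and Itgb2 and Itgam at 1.20, while Itgal lay closest to Icam1 (0.23).

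With each rat left out in turn, Itgb2 ran from 2.93 to 3.86, Itgam from 2.01 to 2.59 and Itga4 from 1.55 to 2.06, and all 3 passed each time. The highest adjusted p in these fits was 0.029 for Itgb2, 0.031 for Itgam and 0.044 for Itga4. These fits called more of all genes than the fit with 4 rats did, at 7.45% when lean rat 1 was dropped and 3.29% for lean rat 2, and at 1.85% and 2.45% when obese rat 1 and obese rat 2 were dropped. Icam1 ran from 0.14 to 0.50 and Itgb7 from -0.68 to -0.16. Itgal, Icam2 and Vcam1 took both signs.

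**Figure D4:**
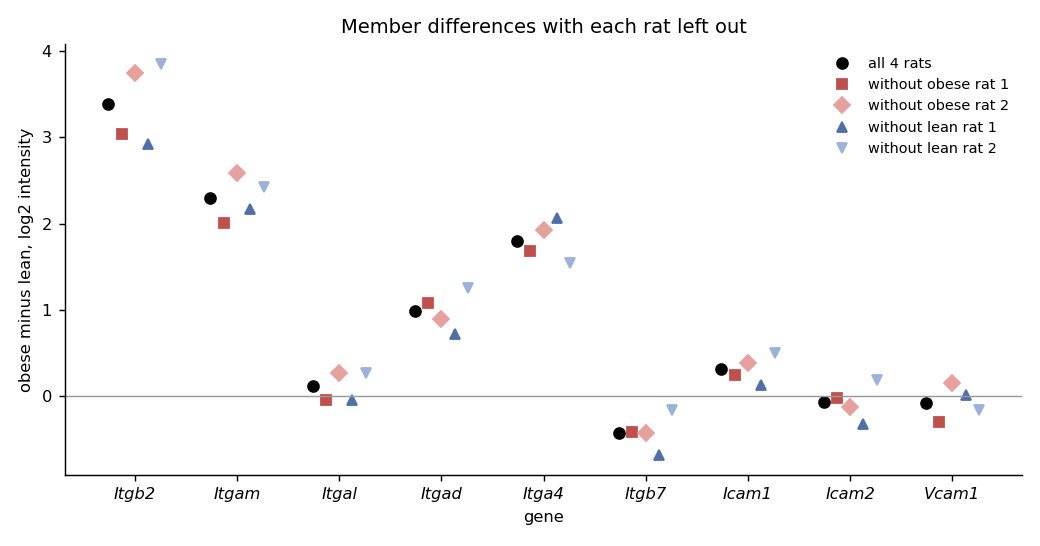
Obese minus lean difference in log2 intensity (vertical axis) of the 9 genes over all 4 rats and with each rat left out. Itgb2, Itgam and Itga4 stay above 1.5 in every fit, and Itgal, Icam2 and Vcam1 fall on both sides of 0.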

How the data were processed

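The authors deposited linear intensity values (2.03 to 12791), and the submitters' processing notes name RMA. RMA's background correction and quantile normalization reduce shifts shared by most genes, but the deposited arrays do not share 1 distribution. Its software and probe-set level are not given in the sources used. Total RNA came from 500 mg of fat and 100 ng was labelled, per the labels' protocols. The small number of arrays limits the precision.

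Intensities were taken to log2 with no pseudocount and no filter. Of 29214 rows, 15310 carried 1 symbol in the platform's annotation, and the row with the highest mean was kept per gene. Obese and lean rats, each sample a separate rat grouped by title, entered one limma fit (version 3.58.1, R 4.3.3; lmFit, eBayes with trend, all 4 arrays, no covariates), with Benjamini-Hochberg adjustment over 14506 genes. The fit was tested on simulated data whose variances followed limma's own prior, after a first simulation with limma's posterior spreads gave more false calls, so it does not bound false calls on these arrays. Small differences can go uncalled with 2 rats a group, so a gene without a call may still differ. Alternatives covered normalization, variance model, array weights, filters, pseudocount, rows, the rat number as a block and each rat left out.

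The genes of the set, the lists and the tests were chosen with earlier results of these data known, and the 12 ratio pairs after their values were seen. Genes named from a list are its called genes (up to 6) or the 2 with the smallest p, and the 5 genes closest to each called integrin. Exceptions, chosen after their values were seen, are Itgb1, Itgb6, Itgae, Mpo, Cd52, Cd53, Cd163, Marco, Fermt3, Madcam1, Selp, Selplg and Krt19. A planned comparison of protein sequences was not made. Figures were drawn with matplotlib 3.10.9.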

Additional observations from a re-analysis of the deposited data

How the results depend on the processing

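Over 15 alternatives Itgb2 and Itgam kept their sign and their call, and Itga4 lost its call in the 4 named with it. Of the set 3 genes were called over all 4 rats, and between 2 and 4 under each alternative. Icam2 was above 0 with median centring (0.030) and without lean rat 2 (0.19) and ran down to -0.32 with a rat left out, and Vcam1 with median centring (0.025), without obese rat 2 (0.15) and without lean rat 1 (0.014), with a low of -0.30. Itgal was at -0.037 without obese rat 1 and without lean rat 1, and at most 0.27 with a rat left out. The cause was not tested. Genes called over the whole table numbered 122, and 262 with a robust variance model, 75 with quantile normalization, 66 without the lowest 50% of genes, 185 over all rows and 268 to 1081 with a rat left out. Calls that rose made up 112 of the 122 but 89 of the 185. The 50% filter left Itgal, Itgad and Itgb7 without a value. With the rat number as a replicate block 327 genes were called, 254 higher, and the set's calls were the same. The titles number the rats and state no pairing. The deviations of same-numbered rats from their group means correlated at 0.020 across genes. With 2 rats a group that value cannot decide whether the rats were paired. With a lean rat left out the spread came from the obese pair (mean deviation 0.131), and with an obese rat left out from the lean pair (0.230). Signal near background limits Itgad and Itgb7.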

Other observations

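Itgb6, the beta chain of an epithelial integrin that activates latent TGF-beta, was at 4.29 and 4.41 in the obese rats, against 6.73 in lean rat 1 and 4.53 in lean rat 2. The keratin gene Krt19 was at 4.22 and 4.32 in the obese rats, against 8.53 in lean rat 1 and 4.62 in lean rat 2, and neither gene passed over all 4 rats (limma adjusted p = 0.353 and 0.329). Both were thus high on the array that also carried muscle RNA, and neither passed without it (adjusted p = 0.546 and 0.246). In the obese rats and in lean rat 2 both genes were under the receptor-gene background. Without lean rat 2 the difference was -2.39 for Itgb6 and -4.26 for Krt19, sizes that rest on lean rat 1.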
